A study of Rattus norvegicus with 50 samples.

Results

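AMP-activated protein kinase (AMPK) senses the energy state of the cell, and the transcripts of 3 of its subunit genes were followed here across kidney cortex and medulla of lean and obese rats. The genes were Prkaa1 (ENSRNOG00000012799), which encodes the catalytic subunit alpha1, Prkaa2 (ENSRNOG00000007706), which encodes the catalytic subunit alpha2, and Prkab1 (ENSRNOG00000001142), which encodes the regulatory subunit beta1. They were picked by their Ensembl gene IDs, with earlier results of these data known. They are 3 of the 32545 gene IDs in the expression table, and all 3 were detected in every library. The table pairs its IDs with no names, so the genes of the other subunits, of the kinases upstream of AMPK and of its substrates were not analysed here, and the labelled tissues could not be checked against marker genes.

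AMPK works as a heterotrimer of a catalytic alpha, a scaffolding beta and a nucleotide-binding gamma subunit. The kinase domain lies in alpha and is switched on by phosphorylation of its activation loop by LKB1 or CaMKK2, while beta holds a carbohydrate-binding module and anchors alpha to gamma. Rising AMP and ADP bind gamma and keep the enzyme active, which then turns off fat and protein synthesis and turns on fatty acid oxidation. Direct activators such as MK-8722 bind in a pocket between the alpha kinase domain and the beta module. The amount of each subunit transcript says nothing of the phosphorylation or activity of the enzyme, which these data do not measure.

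All rats were of the ZSF1 strain, in which the obese animals develop diabetes and progressive kidney disease. The 5 conditions were obese rats on enalapril at 10 mpk, obese rats on MK-8722 at 1 mpk, obese rats on MK-8722 at 10 mpk, obese rats on vehicle and lean rats on vehicle, with mpk as the labels write the dose unit. Enalapril inhibits angiotensin-converting enzyme. Each condition had 5 libraries of cortex and 5 of medulla, 50 libraries in 10 groups, made from flash-frozen kidney with a stranded total RNA kit that removes ribosomal RNA. A treatment time of 28 weeks and an age of 20 weeks are both labelled, with no word on how these relate, and animals are labelled lean or obese with no leptin receptor genotype. They do not say which libraries came from the same rat, so each p-value measures the spread between these libraries. In bulk kidney, fewer cells of a type that uses a gene and less RNA per cell cannot be told apart.

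The authors deposited FPKM, fragment counts scaled to transcript length and library size, so levels of different genes can be set side by side per length. Relative depth, read from the step that 1 fragment makes in low genes, ran from 0.599 to 1.53 across the libraries. In cortex the obese vehicle libraries averaged 1.02 ± 0.212 and the lean ones 1.36 ± 0.0811, and in medulla the obese vehicle libraries averaged 0.727 ± 0.0816 and the lean ones 1.13 ± 0.0773 (SD, n = 5 each). The 6 most abundant gene IDs of a library also held 39.1% to 66.2% of its summed FPKM. The typical gene shifted with the group: the median log2 fold change between obese and lean vehicle was 0.30 in cortex and 0.37 in medulla. Many differences are for that reason given on the deposited scale and again on a rescaled one. For the latter, each library was divided by the median of its gene ratios to a reference of geometric means. A difference given once is on deposited values unless rescaling is named. The ratio of 2 subunits within a library is the same on both scales. All log2 fold changes are on log2(FPKM + 0.5), with standard errors and two-sided Benjamini-Hochberg adjusted p-values over all genes tested with limma.

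The sequence upstream of each gene is shown as a description, and any part of it in the differences between groups was not tested. It comes from RefSeq on the GRCr8 build and covers the 250 bases before the annotated start, read 5′ to 3′ on the gene's own strand. Capitals mark the GC box, GGGCGG or its reverse complement CCGCCC, and the ETS-type core CCGGAAG in either orientation. Prkaa1 lies at chr2:55967525-55967774 on the plus strand, Prkaa2 at chr5:125108325-125108574 on the minus strand and Prkab1 at chr12:46248845-46249094 on the plus strand.
Prkaa1: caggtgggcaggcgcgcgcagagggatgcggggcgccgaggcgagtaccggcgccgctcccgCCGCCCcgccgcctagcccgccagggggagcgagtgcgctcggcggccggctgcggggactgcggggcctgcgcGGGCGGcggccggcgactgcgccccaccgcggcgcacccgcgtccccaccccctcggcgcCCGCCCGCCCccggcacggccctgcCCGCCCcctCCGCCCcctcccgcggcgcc
Prkaa2: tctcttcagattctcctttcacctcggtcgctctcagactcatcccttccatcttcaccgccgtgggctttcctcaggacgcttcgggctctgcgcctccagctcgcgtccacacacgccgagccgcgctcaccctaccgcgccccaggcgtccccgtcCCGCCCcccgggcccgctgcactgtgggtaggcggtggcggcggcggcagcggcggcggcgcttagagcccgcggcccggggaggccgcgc
Prkab1: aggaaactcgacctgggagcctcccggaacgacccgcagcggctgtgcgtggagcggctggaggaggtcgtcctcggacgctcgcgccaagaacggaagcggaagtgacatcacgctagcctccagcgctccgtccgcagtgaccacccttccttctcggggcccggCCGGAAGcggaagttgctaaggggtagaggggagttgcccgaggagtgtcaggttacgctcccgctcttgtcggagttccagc

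The 3 windows differ in composition. The Prkaa1 window holds 6 GC boxes, of which a pair overlap, and is 86.4% G and C, above 99.9% of 33465 rat promoter windows of the same length. The Prkaa2 window holds 1 GC box and is 72.8% G and C. The Prkab1 window holds no GC box and 1 ETS-type core, and is 66% G and C. Across all windows the GC box was found in 30.5% and the ETS-type core in 7.27%, and the median G and C content was 51.2%. All 3 are rich in CpG, with 45, 33 and 26 CpG in Prkaa1, Prkaa2 and Prkab1 and observed-to-expected ratios of 0.975, 1.03 and 0.959, against a median ratio of 0.383. The cAMP response element TGACGTCA, found in 1.59% of all windows, and the TATA box TATAAA, found in 12.9%, matched none of the 3 in either orientation. These are matches of letters and not measured binding.

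Prkab1 was the most abundant of the 3 per length, Prkaa2 lay between, and Prkaa1 was lowest. Over all 50 libraries the mean FPKM was 31.4 for Prkab1, 12.8 for Prkaa2 and 6.39 for Prkaa1. Among 13216 gene IDs with a mean FPKM of at least 1, these means lay at percentiles 85.6, 64.3 and 41.1. Prkaa2 spanned the widest range between libraries, 3.54-fold from lowest to highest, against 2.42-fold for Prkaa1 and 1.95-fold for Prkab1. From relative depth and the FPKM steps, the smallest whole numbers of fragments that give the deposited values were 182 to 404 per library for Prkaa1, 108 to 758 for Prkaa2 and 336 to 933 for Prkab1, each value being whole within 0.0337 fragments. At the lowest of these, counting error alone gives a coefficient of variation of 7.41%, 9.62% and 5.46%. The true numbers could be a common multiple of these, and fragments without molecular identifiers need not be independent molecules. RefSeq lists 2 Prkaa1 pseudogenes on chromosome 11. How reads shared with them were counted is not given in the sources used here, so the level of Prkaa1 is uncertain to that extent.

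**Figure D1:**
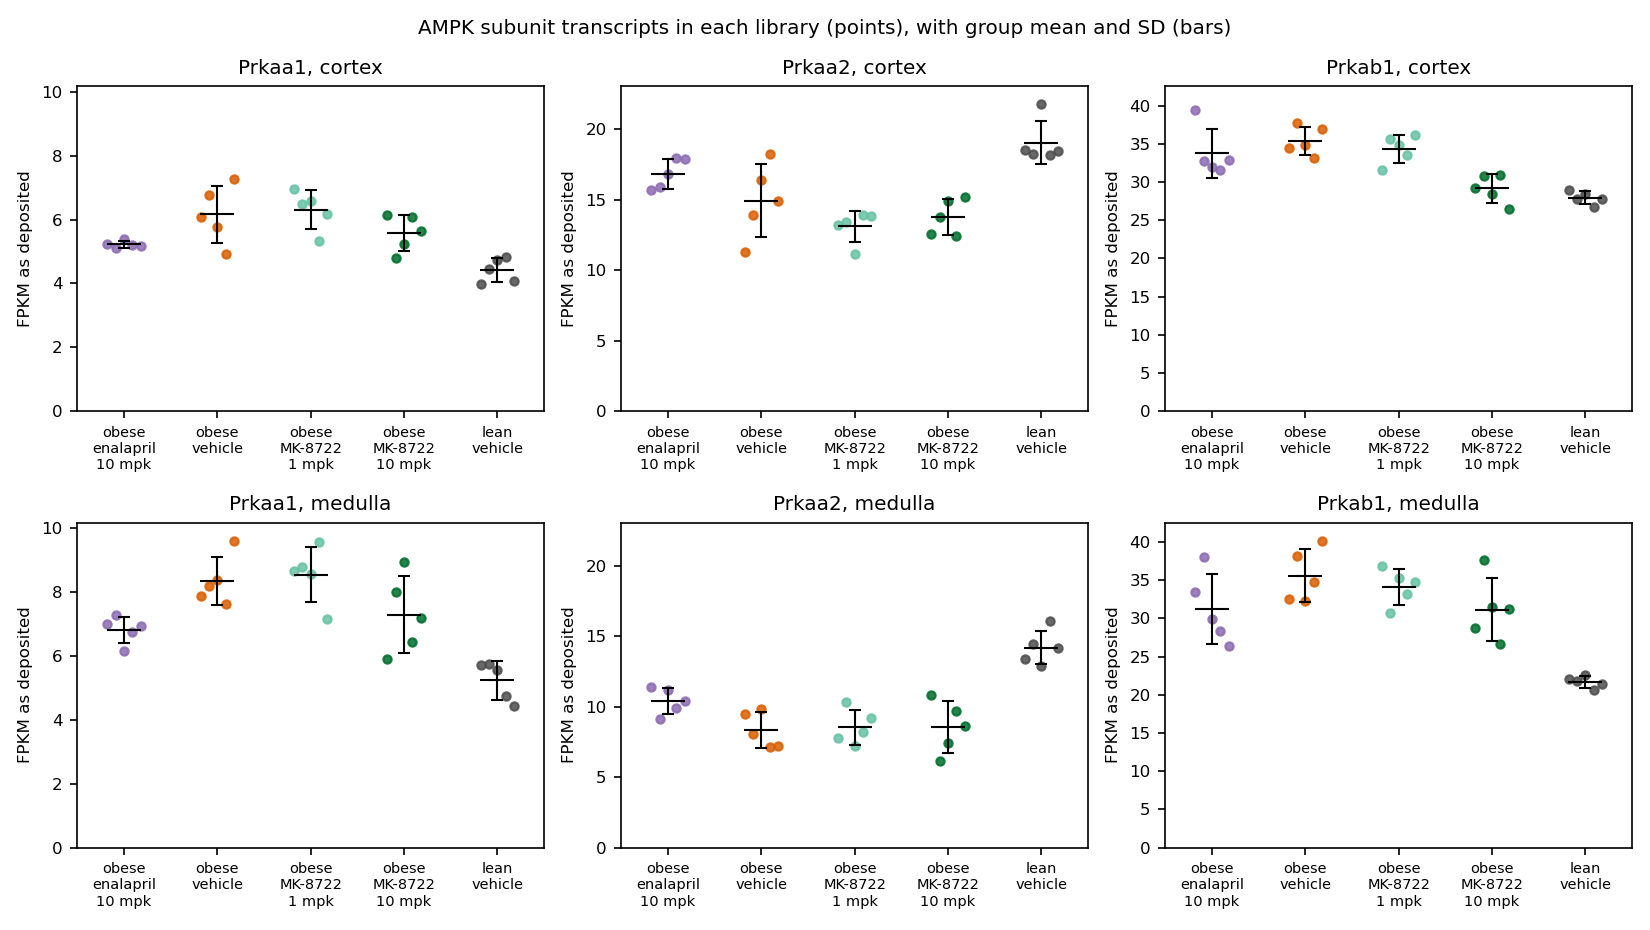
FPKM as deposited of Prkaa1, Prkaa2 and Prkab1 (columns) in cortex (upper row) and medulla (lower row) for the 5 conditions; each point is a library, the long bar the mean and the whiskers 1 SD (n = 5). In medulla the 5 lean vehicle libraries of Prkaa2 sit at 12.9 to 16.1, above all 20 obese libraries, while those of Prkab1 sit at 20.6 to 22.6, below all 20.

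The catalytic alpha2 transcript fell in obese kidney. In cortex Prkaa2 had 11.3, 13.9, 16.4, 18.2 and 14.9 FPKM in obese vehicle rats, with libraries in the order of their replicate numbers. The lean vehicle cortex libraries had 18.6, 18.3, 21.8, 18.2 and 18.5 FPKM. Of the 5 obese libraries 4 lay below all lean ones, and obese vehicle replicate 5, at 18.2 FPKM, lay just inside the lean range. The mean was 14.9 ± 2.61 in obese and 19.1 ± 1.52 FPKM in lean vehicle cortex (SD, n = 5 each). The log2 fold change was -0.36 ± 0.0959 on deposited values (SE, limma adjusted p = 0.00285) and -0.69 ± 0.130 after rescaling (adjusted p = 0.000130). This comparison called 61.1% of 13579 genes on deposited values, with 6.83% of all genes lower, and 45.7% after rescaling, with 22.3% lower and 23.4% higher. The fold change of Prkaa2 lay at percentile 5.67 of all genes.

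Prkaa2 fell in medulla as well. Obese vehicle medulla had 9.5, 8.05, 9.84, 7.15 and 7.23 FPKM of Prkaa2. Lean vehicle medulla had 13.4, 14.4, 12.9, 16.1 and 14.2 FPKM. All 5 obese libraries lay below all 5 lean libraries, at 8.35 ± 1.26 and 14.2 ± 1.20 FPKM (SD, n = 5 each). The log2 fold change was -0.74 ± 0.123 on deposited values (limma adjusted p = 1.31e-05), at percentile 4.56 of all genes, and -1.12 ± 0.141 after rescaling (adjusted p = 3.72e-07). Of 14195 genes 67.7% were called here on deposited values, with 10.9% of all genes lower, and 53.4% after rescaling, with 26.5% lower. The interaction, cortex effect minus medulla effect, was 0.38 (95% interval 0.068 to 0.70, adjusted p = 0.167), so a difference between the tissues was not called. Depth moved with these groups: in medulla the obese vehicle libraries had relative depths of 0.599 to 0.815 and the lean ones 0.992 to 1.18. With relative depth as a term, the Prkaa2 fold change was -0.50 in medulla (adjusted p = 0.0300) and -0.14 in cortex (adjusted p = 0.266), where the call was lost. With the term and rescaling together, a combination chosen after seeing the data, the cortex value was -0.35 (adjusted p = 0.0301).

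The alpha1 transcript moved the other way. Cortex of obese vehicle rats had 6.09, 6.77, 5.76, 4.92 and 7.25 FPKM of Prkaa1, and cortex of lean vehicle rats had 3.97, 4.46, 4.72, 4.84 and 4.07 FPKM. Medulla of obese vehicle rats had 7.89, 8.20, 8.37, 7.64 and 9.60 FPKM, against 5.71, 5.75, 5.56, 4.74 and 4.43 FPKM in lean vehicle rats. In both tissues all 5 obese libraries lay above all 5 lean ones. Prkaa1 averaged 6.16 ± 0.902 in obese and 4.41 ± 0.384 FPKM in lean cortex, and 8.34 ± 0.759 in obese and 5.24 ± 0.611 FPKM in lean medulla (SD, n = 5 each).

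How far Prkaa1 rose depended on the scale. On deposited values its log2 fold change was 0.43 ± 0.0927 in cortex (limma adjusted p = 0.000369) while medulla gave 0.63 ± 0.101 (adjusted p = 8.06e-06), where 54.3% and 56.8% of all genes were called higher. After rescaling it was 0.12 in cortex (95% interval -0.031 to 0.27, adjusted p = 0.192) while medulla gave 0.26 ± 0.0890 (adjusted p = 0.0172). The rise in cortex was thus no longer called relative to the typical gene, and in medulla it was. With relative depth as a term beside rescaling, the medulla value was 0.051 (adjusted p = 0.797). The rescaled medulla call of Prkaa1 was also lost without lean vehicle replicate 6 (0.22, adjusted p = 0.0552), without lean vehicle replicate 7 (0.22, adjusted p = 0.0580) and without obese vehicle replicate 7 (0.23, adjusted p = 0.0503). The implied fragments of Prkaa1 averaged 272 ± 32.2 in obese and 264 ± 32.1 in lean cortex. In medulla they averaged 265 ± 23.7 in obese and 259 ± 30.6 in lean. Those of Prkaa2 averaged 391 ± 147 in obese and 646 ± 72.1 in lean cortex, and 153 ± 35.6 in obese and 399.6 ± 48.4 in lean medulla (SD, n = 5 each). These numbers are not corrected for depth and so do not compare expression between groups. Mean relative depth was 1.02 in obese and 1.36 in lean vehicle cortex, and 0.727 in obese and 1.13 in lean vehicle medulla.

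Set against each other within a library, the catalytic transcripts held less alpha2 per alpha1 in every obese library than in any lean library of the same tissue. The ratio of Prkaa2 to Prkaa1 FPKM was 1.85, 2.05, 2.84, 3.70 and 2.05 in obese vehicle cortex, against 4.67, 4.09, 4.61, 3.76 and 4.54 in cortex of lean rats. It was 1.20, 0.982, 1.17, 0.935 and 0.752 in obese vehicle medulla, against 2.35, 2.51, 2.32, 3.39 and 3.20 in medulla of lean rats. The groups did not overlap in either tissue, although obese vehicle cortex replicate 5, at 3.70, came close to the lowest lean library, at 3.76. That library also had the highest relative depth of its group, 1.34, where the other 4 had 0.813 to 1.13, and whether depth plays a part in the ratio was not tested. The mean ratio was 2.50 ± 0.771 in obese and 4.33 ± 0.392 in lean vehicle cortex, and 1.01 ± 0.185 in obese and 2.76 ± 0.503 in lean vehicle medulla (SD, n = 5 each). Prkaa2 thus made up 70.4 ± 5.74% of the summed alpha FPKM in obese vehicle cortex, against 81.2 ± 1.45% in lean vehicle cortex, and 49.9 ± 4.75% in obese vehicle medulla, against 73.0 ± 3.46% in lean vehicle medulla (SD, n = 5 each). The ratios are given as a description, with no test.

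The treated obese groups stayed below the lean ratio as well. In cortex it was 3.23 ± 0.210 with enalapril, 2.11 ± 0.348 with MK-8722 at 1 mpk and 2.50 ± 0.421 with MK-8722 at 10 mpk (SD, n = 5 each), and the highest of these 15 libraries, 3.46, lay below all lean ones. In medulla the ratio was 1.53 ± 0.205 with enalapril, 1.01 ± 0.205 with MK-8722 at 1 mpk and 1.23 ± 0.451 with MK-8722 at 10 mpk (SD, n = 5 each), and the highest library, 1.83, again lay below all lean ones. Enalapril medulla had 1.63, 1.25, 1.81, 1.47 and 1.5, all above the obese vehicle libraries, whose highest was 1.20. In cortex the enalapril ratios, 3.0 to 3.46, lay within the spread of obese vehicle, 1.85 to 3.70. The MK-8722 groups overlapped obese vehicle in both tissues.

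**Figure D2:**
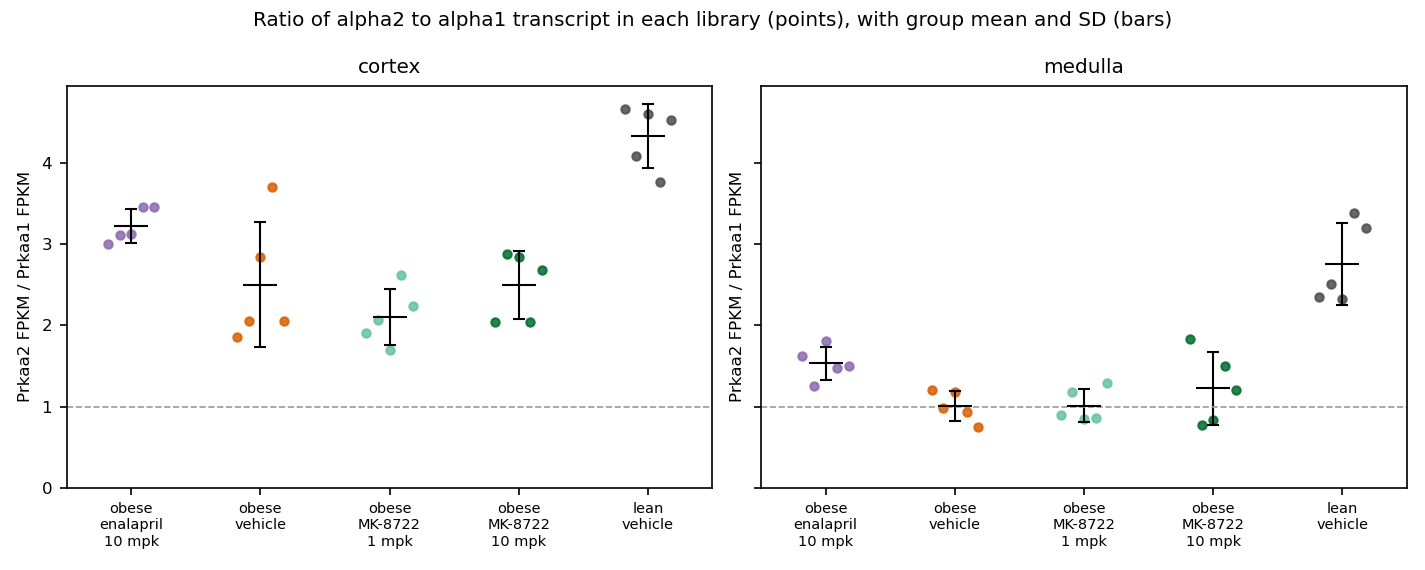
Ratio of Prkaa2 to Prkaa1 FPKM in each library of cortex (left) and medulla (right); points are libraries, long bars means and whiskers 1 SD (n = 5), and the dashed line marks equal levels. Lean vehicle averages 4.33 in cortex and 2.76 in medulla, above every obese library of its tissue, and obese vehicle medulla lies around 1.

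On deposited values, the summed alpha FPKM differed less between the groups than the ratio. It averaged 21.1 ± 2.27 in obese and 23.5 ± 1.70 FPKM in lean vehicle cortex, where the groups overlapped, and 16.7 ± 1.29 in obese and 19.4 ± 1.01 FPKM in lean vehicle medulla, where they did not (SD, n = 5 each). In cortex the mean sum was 19.4 FPKM with MK-8722 at 1 mpk, 19.4 at 10 mpk and 22.1 with enalapril. In medulla it was 17.1 FPKM with MK-8722 at 1 mpk, 15.8 at 10 mpk and 17.2 with enalapril. Unlike the ratio, the sum depends on the scaling of each library.

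The scaffold transcript Prkab1 was higher in obese medulla on both scales. Obese vehicle medulla had 32.6, 38.2, 32.3, 34.8 and 40.1 FPKM. Lean vehicle medulla had 22, 21.8, 22.6, 20.6 and 21.4 FPKM, so that the lowest obese library was well above the highest lean one. Means were 35.6 ± 3.46 and 21.7 ± 0.733 FPKM (SD, n = 5 each). The log2 fold change of Prkab1 was 0.70 ± 0.0925 on deposited values (limma adjusted p = 5.81e-07) and 0.31 ± 0.0786 after rescaling (adjusted p = 0.00197), where 26.9% of all genes were called higher. It stayed called in medulla with relative depth as a term, at 0.66 (adjusted p = 0.000986), and with the term and rescaling together, at 0.35 (adjusted p = 0.0291).

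In cortex Prkab1 rose on deposited values by about as much as the typical gene, whose median was 0.30. Obese vehicle cortex had 34.4, 37.7, 34.9, 33.1 and 36.9 FPKM of Prkab1, and lean vehicle cortex had 29.0, 27.8, 28.4, 26.7 and 27.7 FPKM. No library of one group reached the range of the other. Prkab1 averaged 35.4 ± 1.85 in obese and 27.9 ± 0.845 FPKM in lean vehicle cortex (SD, n = 5 each), a log2 fold change of 0.34 ± 0.0646 (limma adjusted p = 0.000115). After rescaling the difference was -0.0019 (95% interval -0.13 to 0.13, adjusted p = 0.984), so against the typical gene no difference was called. The effect of obesity on Prkab1 differed between the tissues: cortex effect minus medulla effect was -0.36 ± 0.111 (limma interaction, adjusted p = 0.0460, 4.86% of 14586 genes called), and -0.32 after rescaling (adjusted p = 0.0430, 6.51% called). This interaction of Prkab1 lay close to the threshold. It was lost in 16 of the 20 fits that each left out 1 library (adjusted p between 0.0268 and 0.121), and held only without cortex obese vehicle replicate 2 or 6 or medulla obese vehicle replicate 3 or 5. The rescaled interaction was lost in 11 of the 20 (adjusted p up to 0.0976). For Prkaa1 the interaction was -0.20 (95% interval -0.46 to 0.073, adjusted p = 0.494).

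Per catalytic transcript, Prkab1 was higher in every obese vehicle library than in any lean library of the same tissue. The ratio of Prkab1 to summed alpha FPKM was 1.70 ± 0.214 in obese and 1.19 ± 0.0810 in lean vehicle cortex, and 2.15 ± 0.297 in obese and 1.12 ± 0.0869 in lean vehicle medulla (SD, n = 5 each). In cortex it was 1.77 ± 0.143 with MK-8722 at 1 mpk, 1.51 ± 0.173 at 10 mpk and 1.54 ± 0.208 with enalapril (SD, n = 5 each). In medulla it was 2.02 ± 0.276 at 1 mpk, 1.99 ± 0.403 at 10 mpk and 1.82 ± 0.303 with enalapril (SD, n = 5 each).

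**Figure D3:**
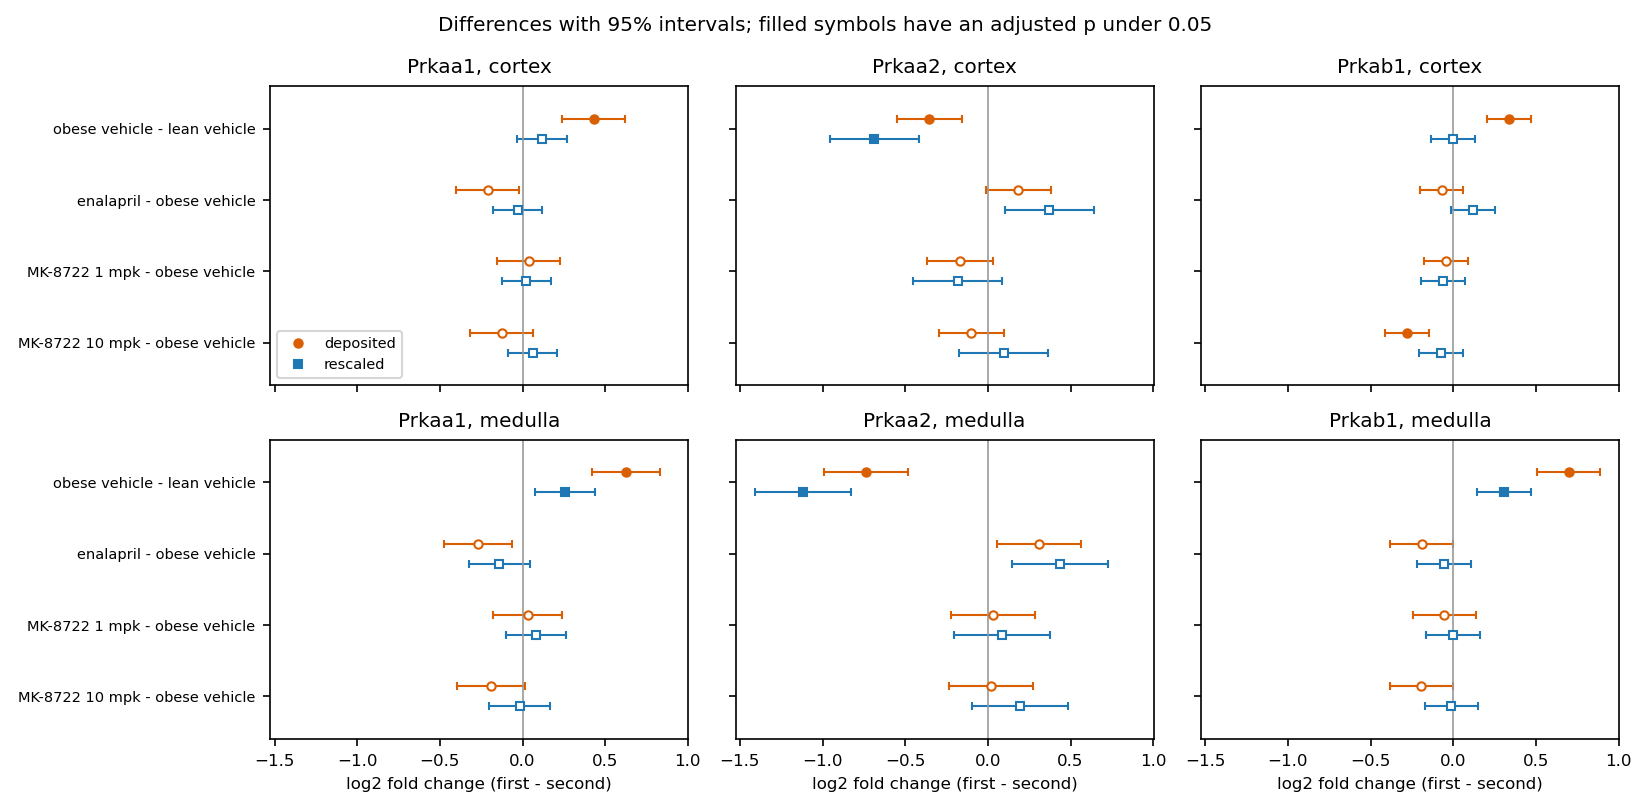
Log2 fold changes (x axis, group named first minus group named second) with 95% intervals for the 3 genes in cortex and medulla; circles are deposited values, squares rescaled values, and filled symbols have an adjusted p under 0.05. Prkaa2 is called lower in obese than in lean vehicle on both scales in both tissues, and of the drug differences from obese vehicle only deposited Prkab1 with MK-8722 at 10 mpk in cortex is filled, at -0.28.

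Against obese vehicle in cortex, 1 of the 3 subunit transcripts was called with MK-8722 at 10 mpk, Prkab1 as lower on deposited values, in a comparison that called 26.6% of all genes. After rescaling 0 of the 3 were called, and the deposited call was also lost under 3 further settings. The drug comparisons share the obese vehicle libraries. The dose series in cortex, from vehicle through 1 to 10 mpk, gave means of 14.9 ± 2.61, 13.1 ± 1.11 and 13.8 ± 1.28 FPKM for Prkaa2 (SD, n = 5 each). The single libraries were 13.2, 13.4, 11.2, 13.9 and 13.8 FPKM at 1 mpk and 12.6, 13.8, 14.9, 12.4 and 15.2 FPKM at 10 mpk, within the obese vehicle range but for 1 library at 1 mpk. For Prkaa1 the cortex libraries were 6.94, 6.50, 6.58, 5.32 and 6.17 FPKM at 1 mpk and 6.15, 4.79, 5.24, 6.07 and 5.66 FPKM at 10 mpk, within the obese vehicle range but for 1 library at 10 mpk. At 10 mpk against obese vehicle, Prkaa2 differed by -0.10 (95% interval -0.30 to 0.10, limma adjusted p = 0.440) and Prkaa1 by -0.13 (-0.32 to 0.065, adjusted p = 0.308). After rescaling these were 0.10 (-0.17 to 0.36) and 0.061 (-0.087 to 0.21), the wider interval being that of Prkaa2.

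Prkab1 in cortex had 31.5, 35.6, 34.8, 33.5 and 36.2 FPKM at 1 mpk and 29.3, 30.8, 28.4, 30.9 and 26.4 FPKM at 10 mpk. All 5 libraries at 10 mpk lay below all 5 of obese vehicle and below all 5 at 1 mpk, and their mean, 29.1 ± 1.86 FPKM, was near that of lean vehicle, 27.9 ± 0.845 FPKM (SD, n = 5 each). Against obese vehicle the log2 fold change was -0.28 ± 0.0646 (limma adjusted p = 0.00411), in a comparison with 24.5% of all genes called lower, whose median over all genes was -0.19. After rescaling it was -0.077 (95% interval -0.21 to 0.056, adjusted p = 0.510, 8.08% of genes called). Between 10 and 1 mpk Prkab1 differed by -0.23 as deposited (adjusted p = 0.0118, 30.2% of genes called) and -0.017 after rescaling (adjusted p = 0.901, 9.75% called), and the deposited call was lost with relative depth as a term (-0.19, adjusted p = 0.146). Of the 5 cortex libraries at 10 mpk 3 had library numbers in a separate, higher range, against 1 of 5 in obese vehicle. In the lower range alone the Prkab1 value was -0.26 (adjusted p = 0.0824). With the 2 compared groups fitted alone it was -0.28 (adjusted p = 0.0657), and with relative depth as a term -0.23 (adjusted p = 0.107).

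In medulla neither dose moved the 3 transcripts past the threshold. Prkaa1 had 8.67, 8.78, 8.57, 9.56 and 7.16 FPKM at 1 mpk and 5.91, 8.0, 8.93, 6.44 and 7.19 FPKM at 10 mpk. Prkaa2 had 7.76, 10.3, 7.24, 8.20 and 9.20 FPKM at 1 mpk and 10.8, 6.14, 7.40, 9.68 and 8.65 FPKM at 10 mpk. Prkab1 had 36.8, 30.7, 35.3, 33.2 and 34.8 FPKM at 1 mpk and 28.7, 37.7, 31.4, 26.6 and 31.2 FPKM at 10 mpk. For each gene both dose groups overlapped obese vehicle, and at 10 mpk all 5 libraries of each lay on the obese side of all 5 lean libraries. Of all genes, 47.7% were called between 10 mpk and lean vehicle medulla on deposited values. At 10 mpk the log2 fold changes against obese vehicle were -0.19 for Prkaa1 (limma adjusted p = 0.168), 0.017 for Prkaa2 (adjusted p = 0.933) and -0.19 for Prkab1 (adjusted p = 0.132), where 18.1% of genes were called. After rescaling they were -0.017, 0.19 and -0.011, with 5.27% of genes called and 95% intervals of -0.20 to 0.17, -0.10 to 0.48 and -0.17 to 0.15. Within the MK-8722 10 mpk medulla libraries Prkaa2 spread most widely, with a coefficient of variation of 21.6%, replicates 2 and 3 being lowest in Prkaa2 and highest in Prkaa1. Those libraries also had the lowest relative depths of the group, 0.751 and 0.759, against 0.848 or more in the other 3, and the part of depth in this was not tested. Between 10 and 1 mpk in medulla 0 of the 3 genes were called, and 5.92% of all genes on deposited and 2.82% on rescaled values, while 1 of the 3 and 25.2% of all genes had an unadjusted p under 0.05 on deposited values.

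At 1 mpk limma called 0 of the 3 genes and 0% of all genes in either tissue, on both scales, and 0 of the 3 had an unadjusted p under 0.05. Over all genes, 583 in cortex (4.29% of 13579) and 577 in medulla (4.06% of 14195) had an unadjusted p under 0.05 on deposited values. The log2 fold changes against obese vehicle in cortex were 0.036 for Prkaa1 (95% interval -0.15 to 0.23), -0.17 for Prkaa2 (-0.37 to 0.029) and -0.044 for Prkab1 (-0.18 to 0.089). In medulla they were 0.032 (-0.18 to 0.24), 0.033 (-0.22 to 0.29) and -0.056 (-0.25 to 0.13) for the same genes in that order. The effect of 10 mpk did not differ detectably between the tissues for any of the 3, with interactions of 0.066, -0.12 and -0.083 (adjusted p of 0.942, 0.900 and 0.899), and that test called 0.226% of genes on deposited and 0.192% on rescaled values.

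Enalapril values lay toward those of lean rats for both catalytic genes, without passing the threshold. In cortex Prkaa2 had 15.7, 15.9, 16.9, 18 and 17.9 FPKM and Prkaa1 had 5.23, 5.11, 5.39, 5.20 and 5.17 FPKM on enalapril. Both genes lay within the range of obese vehicle cortex in all 5 libraries. In medulla Prkaa2 had 11.4, 9.12, 11.2, 9.93 and 10.4 FPKM and Prkaa1 had 6.99, 7.27, 6.17, 6.75 and 6.94 FPKM. All 5 enalapril medulla libraries lay below all 5 obese vehicle libraries in Prkaa1, and 4 of 5 lay above all of them in Prkaa2. Against obese vehicle the Prkaa2 log2 fold change was 0.18 ± 0.0959 in cortex (limma adjusted p = 0.162) while medulla gave 0.31 ± 0.123 (adjusted p = 0.0936). After rescaling it was 0.37 in cortex (adjusted p = 0.105) while medulla gave 0.44 (adjusted p = 0.0685), with the 95% intervals 0.10 to 0.64 and 0.15 to 0.73 both above 0. For Prkaa1 cortex gave -0.21 (adjusted p = 0.108) while medulla gave -0.27 (adjusted p = 0.0762), and -0.029 and -0.14 after rescaling. These comparisons called 0 of the 3 genes. At an unadjusted p under 0.05 on deposited values there was 1 of the 3 in cortex, where 36.3% of all genes passed, and 3 in medulla, where 31.2% passed. After adjustment they called 14.4% of genes in cortex and 10.6% in medulla as deposited, and 1.97% and 4.1% after rescaling.

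A single obese vehicle library decided part of the cortex result. This library, replicate 5, was also the only one of its group in the higher range of library numbers. Without obese vehicle replicate 5, the one with the high Prkaa2 and low Prkaa1, the enalapril effect in cortex on deposited values was 0.26 for Prkaa2 (limma adjusted p = 0.0368) and -0.28 for Prkaa1 (adjusted p = 0.0219). After rescaling, the 10 fits that each left out 1 library put Prkaa1 at -0.062 to 0.014, none called (adjusted p of at least 0.633). Prkaa2 ran from 0.27 to 0.49 in the same fits, with 1 called (adjusted p = 0.0149). Prkab1 on enalapril had 39.4, 32.8, 32.0, 31.6 and 32.9 FPKM in cortex and 33.5, 38.1, 29.9, 28.3 and 26.4 FPKM in medulla, both overlapping obese vehicle. Its log2 fold change on deposited values was -0.071 in cortex (limma adjusted p = 0.421) while medulla gave -0.19 (adjusted p = 0.157). After rescaling, the cortex fits that each left out 1 library put Prkab1 on the other side of 0, at 0.088 to 0.14. None of them was called (limma adjusted p of at least 0.183). Without enalapril replicate 3 the medulla value of Prkab1 was -0.27 as deposited (adjusted p = 0.0435). After rescaling, no fit that left out 1 library called the medulla value of Prkab1 (adjusted p of at least 0.299). The enalapril effects of cortex and medulla differed by 0.061 for Prkaa1, -0.12 for Prkaa2 and 0.12 for Prkab1, none of them called, with 0.00686% of genes called on deposited and 0.00686% on rescaled values.

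Set directly against enalapril in cortex, MK-8722 at 10 mpk gave lower Prkaa2 and Prkab1 values. All 5 MK-8722 libraries lay below all 5 enalapril libraries for both genes. For Prkab1 the log2 fold change was -0.21 ± 0.0646 as deposited (limma adjusted p = 0.0421, 9.63% of genes called) and -0.20 ± 0.0645 after rescaling (adjusted p = 0.0490, 10.7% called). The deposited Prkab1 call lay at the threshold and was lost without enalapril replicate 1, 2 or 7 or MK-8722 replicate 2, 5 or 7, with adjusted p up to 0.132. The rescaled call was lost in 8 of 10 such fits, with adjusted p up to 0.130, and held without MK-8722 replicate 4 or 5. The deposited call was also lost with no filter on low values (adjusted p = 0.0687), with no trend in the moderation (adjusted p = 0.0521) and with the 2 groups fitted alone (-0.21, adjusted p = 0.156). For Prkaa2 the value was -0.28 ± 0.0959 (adjusted p = 0.0623), and -0.28 after rescaling (adjusted p = 0.192). In medulla Prkaa2 differed between the drugs by -0.29 (95% interval -0.54 to -0.037, adjusted p = 0.245), with 2.73% of genes called on deposited and 2% on rescaled values, and Prkaa1 and Prkab1 by 0.078 and -0.0018.

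Rats on the high dose of MK-8722 still differed from lean rats in these genes. This comparison shares its lean libraries with the one of obese against lean vehicle. In medulla, MK-8722 10 mpk libraries differed from lean vehicle by -0.72 in Prkaa2 (limma adjusted p = 3.76e-05), 0.44 in Prkaa1 (adjusted p = 0.000984) and 0.50 in Prkab1 (adjusted p = 9.18e-05), with 47.7% of genes called. After rescaling the values were -0.93 (adjusted p = 9.70e-06), 0.24 (adjusted p = 0.0316) and 0.29 (adjusted p = 0.00361) in that order, with 43.1% called. The rescaled Prkaa1 call was lost without lean vehicle replicate 6 or 7 or MK-8722 replicate 2 or 3, at 0.17 to 0.23 with adjusted p up to 0.122. With relative depth as a term, the deposited Prkaa1 call was lost (0.26, adjusted p = 0.0647). In cortex Prkaa2 differed by -0.46 (adjusted p = 0.000514, 38.3% of genes called) and -0.59 after rescaling (adjusted p = 0.000739, 40.2% called). Prkaa1 differed there by 0.31 (adjusted p = 0.0107), but by 0.18 after rescaling, just outside the threshold. Prkab1 in cortex was not distinguishable from lean on deposited values, at 0.059 (95% interval -0.074 to 0.19). After rescaling, the fits that each left out a single library put it at -0.115 to -0.048. None of them was called (limma adjusted p of at least 0.181).

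Between the tissues, alpha2 was higher in cortex in all 5 conditions. Cortex exceeded medulla in Prkaa2 without overlap in every condition, from 1.34-fold of the mean in lean vehicle to 1.79-fold in obese vehicle. The log2 differences, cortex minus medulla, were 0.60 with MK-8722 at 1 mpk, 0.68 at 10 mpk, 0.67 with enalapril, 0.80 in obese vehicle and 0.41 in lean vehicle, all called (limma adjusted p of at most 0.00248). After rescaling they ran from 0.56 in lean to 0.97 in obese vehicle, again all called. The tissue comparison called 32.7%, 47.4%, 51.6%, 46.6% and 39.9% of 14586 genes in the same order of conditions, and 32.1%, 42.1%, 41.3%, 39.5% and 38.4% after rescaling. Cortex libraries were also deeper than medulla libraries, at means of 1.02 and 0.727 in obese vehicle and 1.36 and 1.13 in lean vehicle.

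The alpha1 transcript had the opposite order. In the 4 obese conditions Prkaa1 was lower in cortex than in medulla, with log2 differences of -0.41 with MK-8722 at 1 mpk, -0.35 at 10 mpk, -0.36 with enalapril and -0.42 in obese vehicle, all called on deposited values (limma adjusted p of at most 0.00214). In lean vehicle the difference was -0.22 (adjusted p = 0.0588). After rescaling only the differences at 1 mpk, -0.30 (adjusted p = 0.00192), and in obese vehicle, -0.24 (adjusted p = 0.0119), stayed called. With relative depth as a term on deposited values, the Prkaa1 differences were -0.12 at 10 mpk, -0.10 with enalapril and -0.24 in obese vehicle, none called (adjusted p of at least 0.0658). Same-numbered cortex and medulla libraries at 10 mpk deviated together, and with the replicate number as a block that Prkaa1 difference was -0.29 (adjusted p = 0.0799). The ratio of Prkaa2 to Prkaa1 was higher in cortex without overlap in all 5 conditions, by 1.57-fold of the mean in lean vehicle and 2.48-fold in obese vehicle.

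For Prkab1 the tissue difference was called on both scales in lean rats. Lean cortex libraries had 26.7 to 29.0 FPKM and lean medulla libraries 20.6 to 22.6 FPKM, without overlap. The log2 difference was 0.36 ± 0.0783 (limma adjusted p = 0.000235) and 0.50 ± 0.0706 after rescaling (adjusted p = 1.01e-07). In obese vehicle it was -0.0039 as deposited (adjusted p = 0.973) and 0.18 after rescaling (adjusted p = 0.0364). That rescaled Prkab1 call was lost without replicate 3, 5 or 6 of either tissue, with adjusted p up to 0.108. With enalapril it was 0.12 (adjusted p = 0.209) and 0.36 after rescaling (adjusted p = 4.31e-05). At 1 and 10 mpk of MK-8722 it was 0.0075 and -0.087, neither called on either scale.

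Ordered over the 10 groups, Prkaa1 ran from 4.41 FPKM in lean cortex to 8.55 in medulla at 1 mpk of MK-8722. The only neighbours in that order whose libraries did not overlap were lean cortex and the next group, enalapril cortex. Prkaa2 ran the other way, from 8.35 FPKM in obese vehicle medulla to 19.1 in lean cortex, where the only step without overlap lay between enalapril cortex and lean cortex. Prkab1 ran from 21.7 FPKM in lean medulla through 27.9 in lean cortex, a step without overlap, to 35.6 in obese vehicle medulla, and its later neighbours all overlapped.

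**Figure D4:**
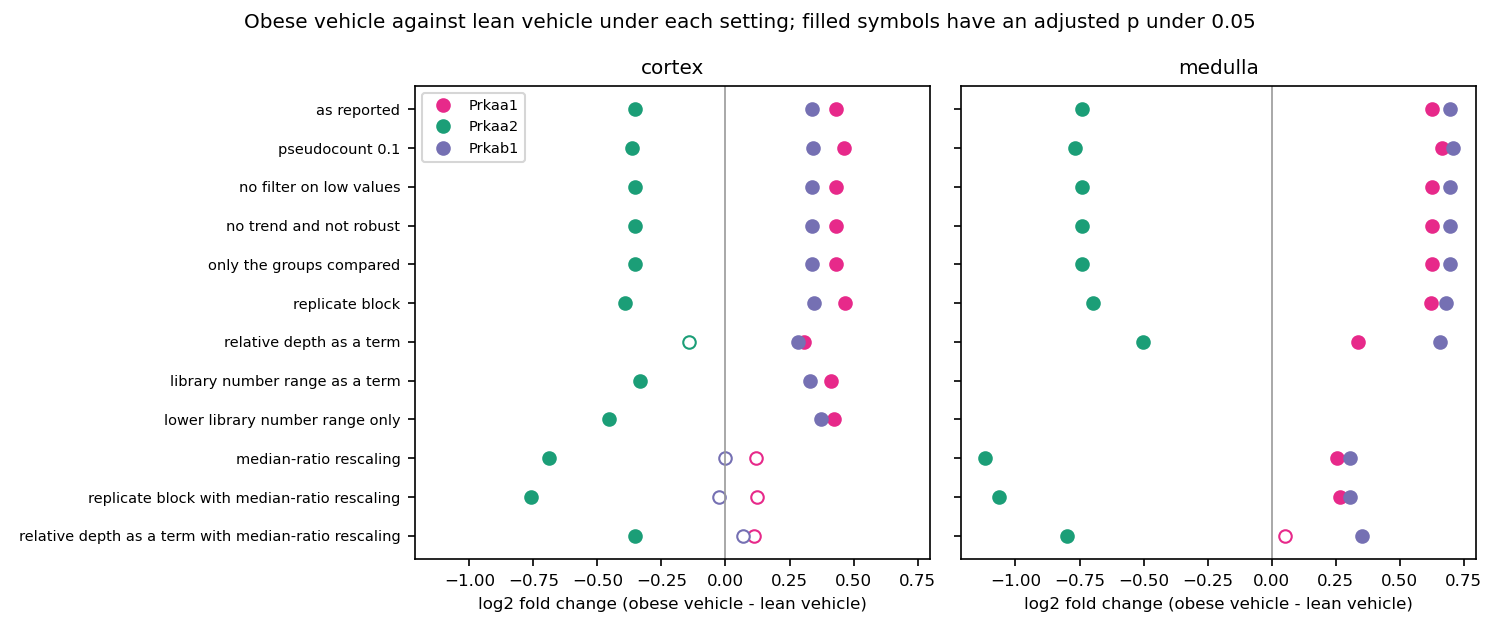
Log2 fold change of obese over lean vehicle for the 3 genes (x axis) under each way of fitting (rows) in cortex and medulla; filled symbols have an adjusted p under 0.05, and the library number ranges exist in cortex only. Prkaa2 lies below 0 in every row, from -0.76 to -0.14 in cortex, while rescaling puts Prkaa1 at 0.12 and Prkab1 at -0.0019 in cortex.

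On rescaled values, the only within-group relation past the threshold was that of Prkab1 and Prkaa2 in medulla. Deviations of the rescaled log2 values from their group means were correlated over the 25 libraries of a tissue, 6 relations in all. In medulla Prkab1 and Prkaa2 were inversely related, with Pearson r = -0.54 (permutation p = 0.00518, adjusted p = 0.0311) and Spearman rho = -0.54 (permutation p = 0.00627, adjusted p = 0.0376), and r = -0.45 without the 2 libraries farthest from the median. On deposited values that r was -0.69. The same pair in cortex had r = 0.44 after rescaling (permutation p = 0.0271, adjusted p = 0.0813, rho = 0.41) and r = -0.31 as deposited, and neither passed the threshold after adjustment. Prkaa2 and Prkaa1 had r = -0.40 in medulla (adjusted permutation p = 0.0898) and r = -0.0028 in cortex after rescaling. As deposited, r for this pair was -0.57 in medulla, past the threshold (adjusted permutation p = 0.00951), and -0.38 in cortex (adjusted p = 0.0949). All libraries enter with their own depth and composition, which the points share across genes.

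The genes whose pattern lay nearest to each subunit were sought among 13373 IDs tested in both tissues, by the lower of the Pearson r over 25 cortex and 25 medulla libraries on rescaled values. For Prkaa2 the nearest was ENSRNOG00000056184, with r = 0.96 in cortex and 0.97 in medulla, and within the 20 obese libraries alone 0.95 and 0.92. Its level was 238 ± 24.8 FPKM in obese and 381 ± 14 FPKM in lean vehicle cortex, and 146 ± 22.5 FPKM in obese and 268 ± 14.3 FPKM in lean vehicle medulla (SD, n = 5 each). The second was ENSRNOG00000052873, with r = 0.95 in both tissues, and 0.91 and 0.87 within the obese libraries. On deposited values ENSRNOG00000056184 was again nearest, with r = 0.89 and 0.95. For Prkaa1 the nearest were ENSRNOG00000016420 (r = 0.69 and 0.74) and ENSRNOG00000006298 (0.66 and 0.77), and for Prkab1 ENSRNOG00000019763 (0.64 and 0.72) and ENSRNOG00000013328 (0.67 and 0.62), in cortex and medulla. Within the 20 obese libraries alone, r with Prkab1 was 0.70 and 0.20 for ENSRNOG00000019763 and 0.74 and 0.47 for ENSRNOG00000013328, and r with Prkaa1 was 0.60 and 0.68 for ENSRNOG00000016420 and 0.48 and 0.59 for ENSRNOG00000006298. None of these 4 was among the 2 nearest on deposited values, where the median r over all genes with Prkaa1 was itself 0.56 in cortex, against 0.013 after rescaling. The correlations describe libraries that share their group structure and carry no p, and the files pair these IDs with no gene names.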

How the data were processed

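Stranded, ribosome-depleted total RNA libraries (1 µg RNA each) of rat kidney cortex and medulla were used, 5 per group. Per the file headers, the authors deposited FPKM, for 32545 Ensembl IDs. For the aligner, the counter and the build, the sources used here give no name. Columns were matched to samples by the library number in the descriptions. The 3 genes and all lists were chosen with earlier results of these data known. Beside them, the naming rule took the 2 IDs nearest in pattern to each; pathway and marker lists could not be run, since 0 IDs of the table matched a name.

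Tests were run in R 4.3.3 with limma 3.58.1 on log2(FPKM + 0.5), with trend and robust moderation, over genes reaching 1 FPKM in 5 or more libraries, and calls had an adjusted p under 0.05. Each tissue was fitted on its 25 libraries, and tissue differences and interactions on all 50. FPKM hide absolute depth; relative depth came from 6873 low genes. The procedure was tested on simulated data with independent noise and no shift of the typical gene or of depth between groups. That test therefore cannot show how such shifts affect the calls. Alternatives were a pseudocount of 0.1, no filter, no moderation trend, rescaling, the groups compared alone, a replicate block, relative depth, library number range, and leaving out each library; depth with rescaling was added after seeing the data. Same-numbered libraries deviated together (every r above 0.1 across genes) between MK-8722 10 mpk and obese vehicle cortex, with r of 0.222 to 0.373 over 3 pairs, and between cortex and medulla at 10 mpk, with r of 0.101 to 0.309 over 3 pairs. The labels state no pairing.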

Additional observations from a re-analysis of the deposited data

Results flagged for a closer look

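Single libraries stood far from the other 4 of their group in 3 of 50 sets of 5 libraries checked, where chance gives about 1 in 20. Prkaa2 in cortex at MK-8722 1 mpk was 11.2 FPKM in replicate 4 and 13.2 to 13.9 FPKM in the others. Prkaa2 in lean vehicle cortex was 21.8 FPKM in replicate 3 and 18.2 to 18.6 FPKM in the others. Prkab1 in enalapril cortex was 39.4 FPKM in replicate 1 and 31.6 to 32.9 FPKM in the others.

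The effect of obesity on Prkab1 differed between the tissues, by -0.36 for cortex minus medulla (limma interaction, adjusted p = 0.0460), where 4.86% of all genes were called. It was 1 of 9 interactions of the 3 genes and the only one called, and was lost in 16 of 20 fits that left out 1 library (11 of 20 after rescaling).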

How the results depend on the processing

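Of 267 alternatives to the 27 differences between conditions and between lean tissues, 250 kept their side of the threshold. Of these 250, 13 were uncalled values that turned sign. Of the rest, 12 lost a call, 2 lost it with a turned sign and 3 gained one. Most of the 27 were uncalled as reported, including those at 1 mpk, where 0% of all genes were called. The pooled count therefore says little of how firm the calls were. Median-ratio rescaling, rescaling with the replicate block, and rescaling joined to a term for relative depth (chosen after seeing the data) gave log2 fold changes for obese over lean vehicle cortex of 0.12, 0.12 and 0.11 for Prkaa1 and -0.0019, -0.025 and 0.068 for Prkab1 (limma adjusted p of at least 0.192). For MK-8722 10 mpk over obese vehicle cortex the same 3 gave -0.077, -0.072 and -0.14 for Prkab1, depth alone -0.23, the groups compared alone -0.28 and the lower library numbers -0.26, none called. Prkaa2 in obese over lean cortex was -0.14 with depth as a term (adjusted p = 0.266), and Prkaa1 in medulla 0.051 with depth and rescaling. Calls were gained for enalapril over obese vehicle cortex: Prkaa2 0.28 with the block (adjusted p = 0.0157) and 0.51 with block and rescaling, and Prkaa1 -0.28 in the lower library numbers (adjusted p = 0.0490); numbers did not pair these groups. The lower library numbers exclude obese vehicle cortex replicate 5. Prkab1 in obese vehicle, cortex minus medulla, turned to 0.18 with rescaling and 0.31 with block and rescaling. Where the numbers paired libraries, the block alone changed no call but that of Prkaa1 at 10 mpk between the tissues. The cause of these changes was not tested. Leaving out 1 library kept the side of the threshold in 263 of 270, with 9 uncalled values turning sign; the ranges were -0.28 to -0.15 (Prkaa1) and 0.091 to 0.26 (Prkaa2) for enalapril over obese vehicle cortex, -0.27 to -0.14 (Prkab1, enalapril) and -0.26 to -0.14 (Prkab1, MK-8722 10 mpk, called at -0.26 without replicate 2, adjusted p = 0.0401) over obese vehicle medulla, and -0.27 to -0.19 for Prkaa1 in lean cortex minus medulla. After rescaling, no such fit called Prkab1 over obese vehicle medulla (limma adjusted p of at least 0.299 for enalapril and 0.709 for MK-8722 10 mpk). All 120 checks of the ratios moved them by under 1 SD. Leaving out 1 of 5 libraries cannot move a mean by that much, so those checks could not fail. Only the checks that added 0.5 to each FPKM could have. Absolute depth is unknown, the obese medulla groups have the lowest mean depths, and 5 libraries a group limit what small drug effects can be seen.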
